A study of Equus caballus with 6 samples.

Results

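Inflammatory cytokines and the molecules that restrain them were followed in circulating leukocytes of horses after and before exercise. The genes were the cytokines IL6, TNF, IL18 and IL10 and the intracellular inhibitors SOCS3 and PIAS3. With them stood the interleukin-1 antagonist IL1RN, the decoy receptor IL1R2 and the secreted hyaluronan-binding protein TNFAIP6. A probe belonged to the set when its annotation on the array is a RefSeq transcript of one of these 9 genes, which gave 22 of 43603 non-control probes. IL1RN had 10 probes, IL10 had 5 and the other 7 genes had 1 each. Each of the 22 passed the filter on dim probes, which asks for 3 of the 6 arrays above the scanner software's background mark, and was tested.

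The cells were buffy coat leukocytes, drawn off after spinning EDTA blood, of 3 neutered male warmblood horses numbered 1, 2 and 4 in the labels. Each horse gave 1 sample after and 1 sample before exercise, so 3 arrays stood in each group. The labelled ages were 11, 7 and 15 years for horses 1, 2 and 4, while the series description gives a range of 9 to 17 years. The labels of the samples after exercise carry 60 min without saying what it measures, and the protocol describes sampling right after the exercise, so neither its length nor the interval to sampling is settled. No horses rested between both samplings were analysed here, so a change over time without exercise cannot be told apart from one with it.

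Leukocytes that meet microbial products or tissue damage release TNF, IL6 and interleukin-1 family cytokines such as IL18, and these act through receptors that feed NF-kB and STAT3 signalling. The response carries its own brakes, known mainly from human and mouse. IL10 lowers cytokine production, IL1RN occupies the interleukin-1 receptor without activating it, and IL1R2 binds interleukin-1 without signalling. SOCS3 is induced by STAT3 and blocks the kinases of the IL6 receptor complex, and PIAS3 hinders the binding of STAT3 to DNA. Exercise physiology knows IL6 also as a factor released by contracting muscle, which these blood cell samples do not contain.

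Horses 1 and 2 before exercise were hybridised on slide 2 and the other 4 samples on slide 1, so the change within horses 1 and 2 also spans the slides. The share of spots well above background ran from 64.1% to 69.4% per array. The leukocyte markers CD14 (monocytes), CD2 (T cells), GZMB (cytotoxic cells) and MMP9 (neutrophils) were well above background on all 6 arrays, as were the haemoglobin gene HBB and the platelet gene ITGA2B, so red cell and platelet RNA was present as well. In such bulk samples, fewer cells of a type and less RNA per cell cannot be told apart. On the horse 4 array before exercise, 95.1% of the 226 odd-row spots in the first column missed the background mark, where the other 5 arrays had 35.4% to 39.8%. PIAS3 has its probe there and is set apart below.

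Levels are given as the log2 of the background-subtracted signal minus the 75th percentile of the same array, so 0 is the level of a probe at that percentile. A level describes its own probe and is not compared between probes. Changes are after minus before exercise on this log2 scale. None of the 22 probes passed the test at an adjusted p under 0.05 (limma over 29570 probes, Benjamini-Hochberg), and 0% of all tested probes did. In this fit, which does not pair the samples by horse, none had an unadjusted p under 0.05 either, against 2.89% of all tested probes. The 22 adjusted p-values rounded to 0.999 or above. With 3 arrays against 3, the 95% interval of a change ran from about -0.15 to 0.65 for the tightest probe (IL10 probe A_69_P001090) and from -1.52 to 1.71 for TNFAIP6, the widest outside the first column.

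The count of member probes called stayed at 0 of 22 without horse 4, where 0.0676% of all probes were called, and without the before-exercise sample of horse 4, where 2.01% were. In both fits the samples after exercise lay on slide 1 and those before on slide 2, so group and slide cannot be told apart.

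**Figure D1:**
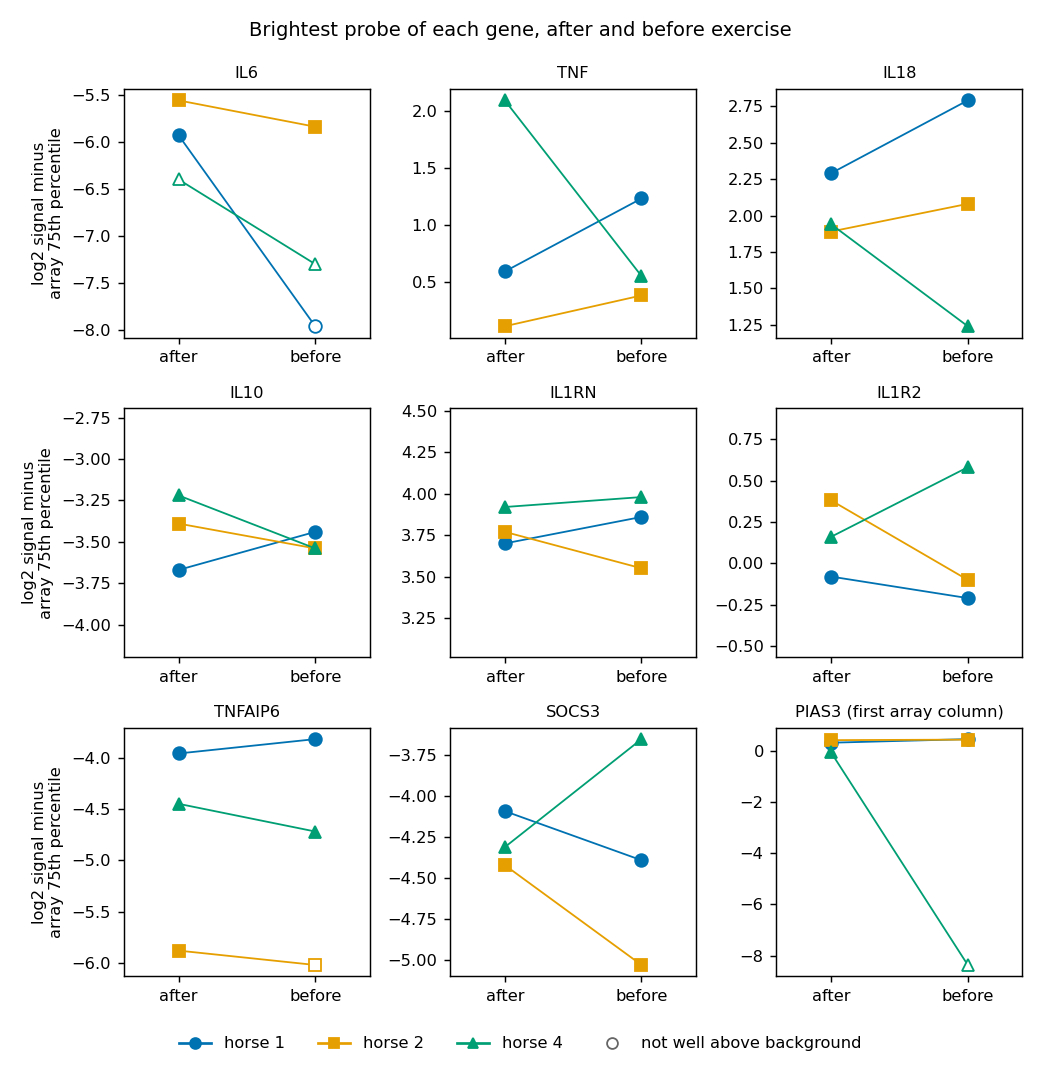
Level of the brightest probe of each of the 9 genes on each array (log2 signal minus the array's 75th percentile, vertical axis, a scale of its own per panel) after and before exercise, with a line for each horse and open symbols where the spot was not well above background. The groups overlap in every panel, IL6 is higher after exercise in all 3 horses, and the PIAS3 panel is set by 1 dark spot at -8.36.

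Among the cytokines, IL6 was the gene whose direction was uniform, on a probe near background. Its level was -5.93, -5.56 and -6.40 after exercise in horses 1, 2 and 4, against -7.96, -5.84 and -7.30 before exercise. All 3 horses were higher after exercise, by 2.03, 0.28 and 0.90, but the groups overlapped because horse 2 before exercise lay above horses 1 and 4 after exercise. The mean difference was 1.07 (SE 0.54, 95% interval -0.21 to 2.35, adjusted p = 0.999 in limma), a 2.10-fold ratio. In size this exceeded 97% of all tested probes, beside a range over the 6 arrays of 2.40, where the median probe had 0.86.

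The IL6 spots were close to background. Their processed signals were 32.0, 47.6 and 13.4 units after exercise in horses 1, 2 and 4, against 7.20, 44.1 and 11.1 units before exercise. Each signal was 1.47 to 7.03 times the error that the scanner software assigned to the spot, and the spot was well above background on 2 of 3 arrays after and 1 of 3 before exercise. In both samples of horse 4 the spot was below that mark. Spot errors after and before exercise were 6.77 and 7.42 units in horse 2 and 4.14 and 4.87 units in horse 4. The 75th percentiles used for scaling were 2250 and 2540 units in horse 2 and 1120 and 1750 units in horse 4. In both horses the lower percentile after exercise enlarged the log2 change. In horse 1 the spot errors after and before exercise were 5.04 and 4.89 units. Its 75th percentiles were 1950 and 1800 units, so scaling reduced the log2 change in that horse. Normexp background correction, which adds an offset of 50 units to every spot and so shrinks changes most at low signal, gave a change of 0.34 (adjusted p = 0.997 in limma). The change was 0.59 without horse 1 and 1.67 without the sample of horse 2 taken before exercise. With arrays weighted by their estimated quality it was 1.65 and passed (adjusted p = 0.046 in limma), in a fit that called 5.54% of all probes and 1 of the 22 members.

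**Figure D2:**
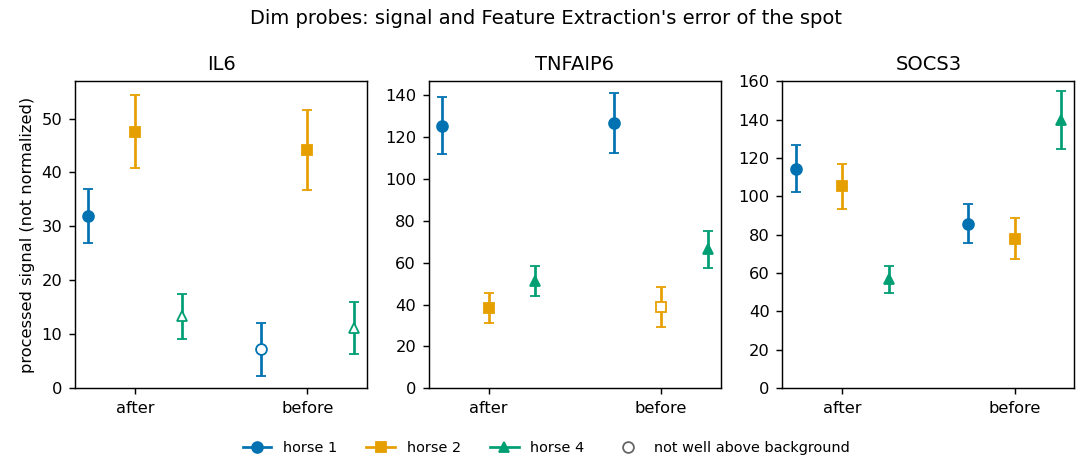
Processed signal (vertical axis, linear units, not normalized between arrays) of the IL6, TNFAIP6 and SOCS3 probes on each array after and before exercise, with bars for the scanner software's error of the spot and open symbols where it was not well above background. IL6 lies between 7.20 and 47.6 units, and TNFAIP6 is highest in horse 1 in both groups.

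TNF, the early cytokine of macrophages and T cells, was dominated by 1 sample. Its level was 0.59, 0.11 and 2.09 after exercise in horses 1, 2 and 4, against 1.23, 0.38 and 0.55 before exercise. Horses 1 and 2 were lower after exercise by 0.64 and 0.27 and horse 4 was higher by 1.54, so the after-exercise sample of horse 4 stood above the other 5. The mean difference was 0.21 (SE 0.53, adjusted p = 0.999 in limma). Without that sample it was -0.37, and without both samples of horse 4, where group and slide coincided, it was -0.46. The spots were bright, at 2417 to 4783 units, and this signal was the highest of the 6 before scaling too, on the array with the lowest 75th percentile (1120 units, against 1750 to 2540 on the others).

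IL18, a cytokine that drives interferon-gamma production, was split between the horses in the same way. Its level was 2.29, 1.89 and 1.94 after exercise in horses 1, 2 and 4, against 2.79, 2.08 and 1.24 before exercise. It was lower after exercise by 0.49 in horse 1 and 0.19 in horse 2, and higher by 0.71 in horse 4. These cancelled to a mean of 0.01 (SE 0.39, 95% interval -0.92 to 0.94). The SD between horses was 0.22 after and 0.78 before exercise (n = 3 each), and horses 1 and 4 before exercise were the highest and lowest of the 6. This difference in spread was not tested. The samples before exercise lay on 2 slides and those after on 1, so spread between horses and between slides cannot be told apart.

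IL10, the anti-inflammatory cytokine, varied least among the cytokines. The brightest of its 5 probes had levels of -3.67, -3.39 and -3.22 after exercise in horses 1, 2 and 4, against -3.44, -3.54 and -3.54 before exercise. Its change was 0.08 (SE 0.19, 95% interval -0.38 to 0.54), and the range over the 6 arrays was 0.45. All 5 probes had positive changes, between 0.08 and 0.25 with SE from 0.17 to 0.19. In horse 2 all 5 were higher after exercise (0.16 to 0.42) and in horse 4 likewise (0.12 to 0.37), while in horse 1 only 2 were (-0.24 to 0.32).

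One IL10 probe, A_69_P001090, separated the groups without overlap. It had -3.44, -3.52 and -3.59 after exercise, against -3.76, -3.79 and -3.74 before exercise in horses 1, 2 and 4. Its change of 0.25 (SE 0.17, adjusted p = 0.999 in limma) stood beside tight groups, with an SD of 0.08 after and 0.03 before exercise (n = 3 each). It was the 1 member probe of 22 without overlap, while 7.31% of all probes had none, and the other 4 probes of the gene overlapped. The 5 probes target transcripts of 1 gene on the same arrays and are not independent. Correlations between pairs of them over the 6 arrays ran from -0.03 to 0.96.

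The interleukin-1 antagonist IL1RN had the most probes, and they moved together within horses 2 and 4, in opposite directions. Its brightest probe had 3.70, 3.77 and 3.92 after exercise in horses 1, 2 and 4, against 3.86, 3.55 and 3.98 before exercise. The groups overlapped and the change was -0.0006 (SE 0.20, 95% interval -0.47 to 0.47). The other 9 probes had changes of 0.02 to 0.25. All 10 probes were higher after exercise in horse 2, by 0.22 to 0.83, and all 10 were lower in horse 4, by 0.06 to 0.29. In horse 1, 7 of 10 were higher (-0.17 to 0.25).

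The 10 probes followed each other closely over the 6 arrays, with correlations of 0.79 or more between pairs. Relative to each probe's own mean, the median of the 10 was -0.05, 0.09 and 0.17 after exercise in horses 1, 2 and 4, against -0.18, -0.41 and 0.41 before exercise. The before-exercise samples of horses 2 and 4, on slides 2 and 1, were thus the lowest and highest of the 6, and the after-exercise samples lay between them. The brightest probe, at 17010 to 30560 units, moved less than the others in horse 2. Averaging all 10 probes gave a change of 0.13 (SE 0.25), with the sign opposite to that of the brightest probe and with both values inside 1 SE of 0.

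**Figure D3:**
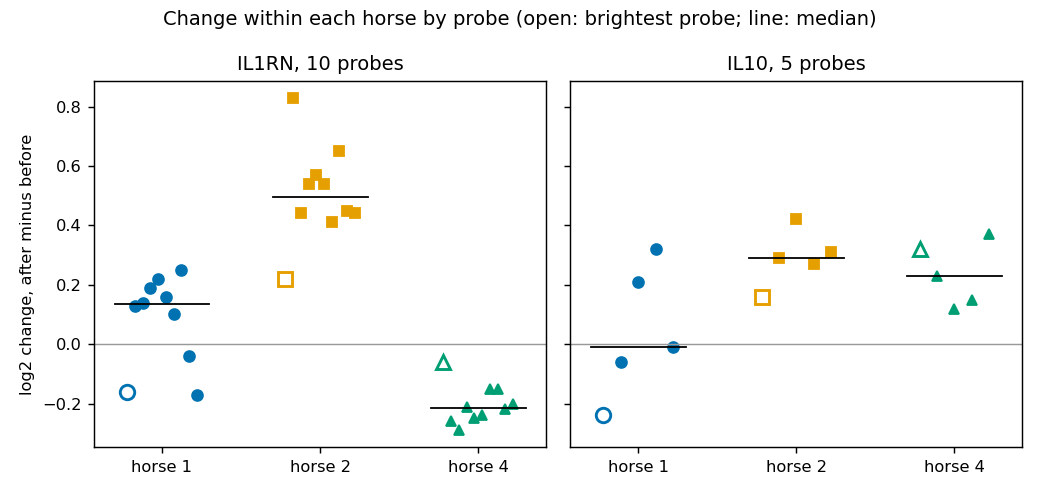
Change after minus before exercise (log2, vertical axis) of the 10 IL1RN and 5 IL10 probes within horses 1, 2 and 4, with open symbols for the brightest probe and lines for the median. All IL1RN probes are above 0 in horse 2 and below 0 in horse 4, and all IL10 probes are above 0 in horses 2 and 4.

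IL1R2, the interleukin-1 decoy receptor carried by neutrophils and monocytes, had the same order of changes as the median IL1RN probe. That median was 0.135, 0.495 and -0.215 in horses 1, 2 and 4. The brightest IL1RN probe had another order (-0.16, 0.22 and -0.06). IL1R2 has 1 probe. Its level was -0.08, 0.38 and 0.16 after exercise in horses 1, 2 and 4, against -0.21, -0.10 and 0.58 before exercise. It was higher after exercise by 0.13 and 0.48 in horses 1 and 2 and lower by 0.42 in horse 4, and the groups overlapped. The mean difference was 0.06 (SE 0.27, 95% interval -0.58 to 0.71).

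TNFAIP6, a secreted hyaluronan-binding protein that tempers neutrophil entry into inflamed tissue in mice, differed between horses far more than within them. Its level was -3.96, -5.88 and -4.45 after exercise in horses 1, 2 and 4, against -3.82, -6.02 and -4.72 before exercise. The order of the 3 horses was the same in both groups. The means of the horses covered 2.06, while no horse changed by more than 0.27 (-0.14, 0.15 and 0.27). For 5 of the 9 genes the horse means covered more than the largest change within a horse, as did 41.4% of all probes. The mean difference of TNFAIP6 was 0.09 (SE 0.68), and that SE holds the spread between animals. With horse as a block the SE was 0.17 and the adjusted p 0.881 in limma. Horse 2, the lowest, had signals of 38.2 units after and 39.0 before exercise, and only the first of these was well above background.

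SOCS3, the feedback inhibitor of IL6 signalling, also changed in opposite directions between horses. Its level was -4.09, -4.42 and -4.31 after exercise in horses 1, 2 and 4, against -4.39, -5.03 and -3.65 before exercise. It was higher by 0.30 and 0.61 in horses 1 and 2 and lower by 0.66 in horse 4. The before-exercise samples of horses 2 and 4 were again the lowest and highest of the 6, and the after-exercise samples lay between them. The mean difference was 0.08 (SE 0.35, 95% interval -0.76 to 0.92), with SDs of 0.17 after and 0.69 before exercise (n = 3 each). As for IL18, these SDs were not compared by a test and the wider group lay on 2 slides.

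PIAS3, the inhibitor of STAT3, cannot be read from all 6 arrays. Its level was 0.31, 0.41 and -0.07 after exercise in horses 1, 2 and 4, against 0.45, 0.43 and -8.36 before exercise. The last value comes from the dark first column of the horse 4 array and a signal of 5.34 units, against 1071 to 3428 units on the other 5 arrays. The change over all arrays, 2.71 (SE 2.26), is set by that spot. With the first column of that array left out, the change was -0.23 (SE 0.24, adjusted p = 0.999 in limma), from 3 arrays after and 2 before exercise, and horses 1 and 2 were lower by 0.14 and 0.02. Those 2 samples before exercise are the ones on slide 2, so group and slide cannot be told apart in that value. With slide as a block PIAS3 was called higher (change 8.58, adjusted p = 6.01e-05 in limma), in a fit that called 0.446% of all probes. With that column left out as well, limma called 0 probes in the same fit, with 865 at an unadjusted p under 0.05. For PIAS3 that fit could not adjust for slide and gave the same -0.23.

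**Figure D4:**
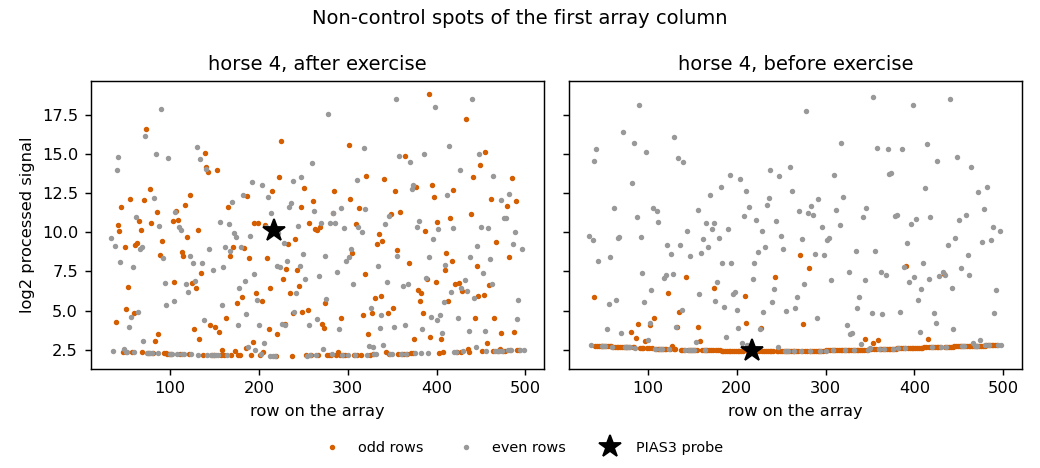
Log2 processed signal of the non-control spots in the first array column by row on the 2 arrays of horse 4, with odd and even rows in separate colours and a star for the PIAS3 probe. Before exercise 215 of the 226 odd-row spots, PIAS3 among them, were below the background mark and most lie near the floor, while after exercise they spread over the same range as the even rows.

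For most of these genes the sign of the change differed between horses, as it did for most probes on the array. IL6 was the 1 gene of 9 whose brightest probe changed one way in all 3 horses. Counting probes, 3 of 22 did (IL6 and 2 IL10 probes, all higher), against 28.8% of all probes, and higher in all 3 horses were 17.3% of all probes. Lower in all 3 horses were 0 of 22, against 11.5% of all probes. Higher in horses 1 and 2 and lower in horse 4 were 9 of 22 probes, against 24.1% of all probes, and 7 of these 9 target IL1RN while the others are IL1R2 and SOCS3. The opposite, lower in horses 1 and 2 and higher in horse 4, held for 3 of 22 probes, against 19.5% of all probes, and these were TNF, IL18 and PIAS3, the last through its dark spot. With no spread within a horse, a difference between horses could not be tested.

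On slide 1 alone, the 3 samples after exercise faced a lone sample before exercise, that of horse 4, which limma assumes to vary like the others. In this fit, which called 0.413% of all probes and 1 of the 22 members (PIAS3), IL18 had a change of 0.81, SOCS3 of -0.62, IL1R2 of -0.43 and IL6 of 1.34, each with an adjusted p of 0.977 in limma. Since the change in horses 1 and 2 spans the slides and that in horse 4 does not, a difference between these horses cannot be told apart from one between slides. With both horse and slide in the fit, which leaves horse 4 alone to carry the change, 0.397% of all probes and again PIAS3 alone among the 22 were called.

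**Figure D5:**
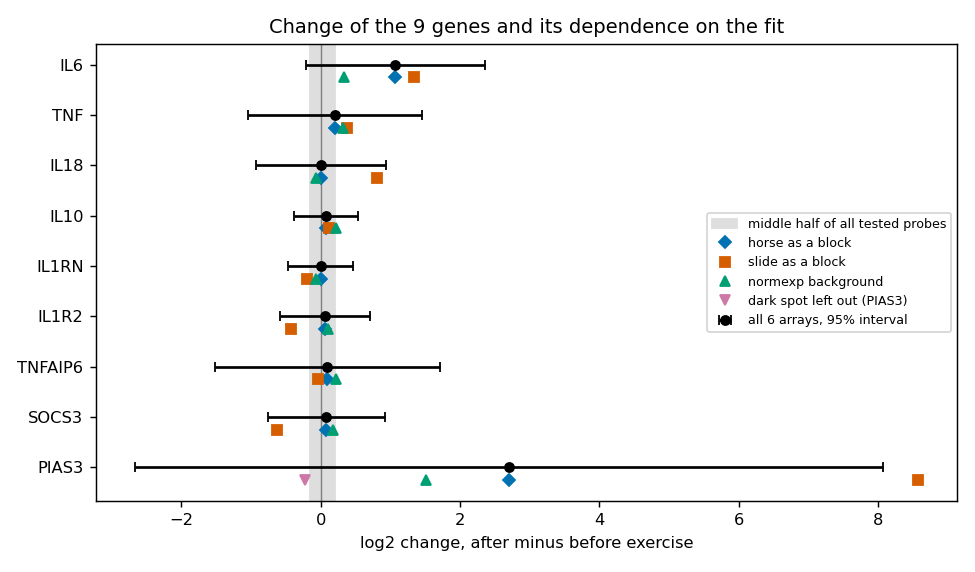
Change after minus before exercise (log2, horizontal axis) of the brightest probe of the 9 genes, with 95% intervals from the limma fit of all 6 arrays, symbols for other fits and a grey band for the quartiles of all tested probes (-0.16 to 0.20). Every interval includes 0, and PIAS3 goes to -0.23 once the dark spot is left out.

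Markers of leukocyte types moved with part of this pattern, and their part in it was not tested. The median change of the 3 measured of 13 T cell markers was 0.23, 0.75 and -0.47 in horses 1, 2 and 4, and that of the 5 of 10 NK cell markers was 0.37, 0.46 and -0.48. The 6 of 11 monocyte markers had 0.41, 0.37 and -0.09, and they were split in horse 4. Lower there were CD14 (0.79, 0.84 and -0.77), the lipopolysaccharide receptor TLR4 (0.32, 0.94 and -0.47) and CSF1R (0.26, 0.22 and -0.28). Higher there were TIMP1 (0.49, 0.53 and 0.45), CD68 (0.76, -0.44 and 0.48) and CCR2 (0.11, -0.06 and 0.10). The medians of all 3 lists had the signs of SOCS3 and IL1R2, which 24.1% of all probes had too. Among the T and NK cell markers CD28, CD2, CCL5, GZMB and KLRD1 had these signs, and IL7R, NCR1 and GNLY did not. The 3 of 15 neutrophil markers had 0.15, 0.41 and 0.12. The summed linear level, in multiples of the array's 75th percentile, ranged from 3.12 to 3.58 after and from 2.12 to 5.26 before exercise for T cell markers. It ranged from 88.4 to 106 and from 59.8 to 133 for NK cell markers, from 57.5 to 103 and from 37.1 to 89.5 for monocyte markers, and from 18.1 to 23.9 and from 13.2 to 23.9 for neutrophil markers, in the same order of groups. The samples before exercise lay on 2 slides here too. The 2 of 9 erythroid markers, HBB and HBA2, summed to 174, 27.1 and 486 after exercise in horses 1, 2 and 4, against 92.9, 4.84 and 407 before exercise. They were higher after exercise in all 3 horses, as were IL6 and 17.3% of all probes, with median changes of 0.91, 2.48 and 0.24. The markers TIMP1, GNLY and MMP9 were also higher in all 3 horses. The erythroid median change in the fit was 1.21, the highest of the 7 marker lists. It rests on HBB (1.37, SE 1.77) and HBA2 (1.05, SE 1.68). The 3 of 9 platelet markers summed to 24.9 to 32.8 after and 25 to 35.5 before exercise, with median changes of 0.19, -0.03 and -0.15 in horses 1, 2 and 4. The 3 of 10 B cell markers summed to 1.03 to 1.57 after and 0.887 to 1.67 before exercise. The B cell markers had median changes of -0.17, -0.20 and 0.29 in horses 1, 2 and 4, the signs of TNF and IL18 and of 19.5% of all probes. Among them TNFRSF13C was lower after exercise in all 3 horses, as were 11.5% of all probes, while PAX5 and FCER2 were higher in horse 4. All measured markers were well above background on all 6 arrays, and none passed the test. IL7R and CSF1R stand among the markers of T cells and monocytes and among the cytokine receptors.

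Other genes of cytokine signalling gave no call either, and most could not be found by name. A gene counts as measured here where a RefSeq transcript names a kept probe, and the 31722 probes annotated by Ensembl transcripts, which may include more of these genes, were not named here. Of 36 further cytokine ligands 11 were measured, and 0 were called higher and 0 lower, with a median change of -0.02 beside 0.04 over all tested probes. IL23A, a subunit of interleukin-23, had 2.14 (SE 1.51), with 0.46, 0.11 and 5.86 in horses 1, 2 and 4, and its only probe also lies in the dark first column. With that column left out on the horse 4 array before exercise its change was 0.19 (SE 0.24). Group and slide cannot be told apart in that value either. The T cell growth factor IL2 had -0.30 (SE 0.25) and IL15, which sustains NK cells, -0.16 (SE 0.20). With a horse or sample left out, IL2 ranged from -0.52 (without horse 2 after exercise) to -0.11 (without horse 4 after exercise). IL15 ranged from -0.28 (without horse 4 before exercise, where group and slide coincided) to -0.039 (without horse 2 before exercise).

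Of 32 cytokine receptors 4 were measured, with a median of 0.07 and 0 calls in either direction. These included IL2RA (0.07, SE 0.19) and IL4R (0.08, SE 0.24), receptor chains for interleukin-2 and interleukin-4, and CSF1R (0.07, SE 0.43), the macrophage growth factor receptor. Of 34 signal transduction and inflammasome genes CASP1, the protease that matures IL18, was measured (0.08, SE 0.34). Of 40 other negative regulators 2 were measured, and neither passed. They were ANXA1, a glucocorticoid-induced mediator that limits neutrophil migration, at 0.15 (SE 0.22), and SOCS6, a SOCS family member, at 0.05 (SE 0.25).

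The genes with the most similar levels over the 6 arrays were listed for each member among 547 other named genes, as a description only, since the 6 arrays come from 3 horses and share scaling and slides. For IL6 they were ST7 (Pearson r = 0.933) and SRSF7 (0.896), for TNF MILL (0.996) and GCNT1 (0.985), and for IL18 SCGB1A1 (0.978) and MMP1 (0.960). IL10 had the least similar ones, CRISP3 (0.815) and CD1B1 (0.799). For IL1RN they were KLHL9 (0.985) and OS9 (0.969), and for IL1R2 CHML (0.981) and PITPNC1 (0.967). TNFAIP6 was nearest to the interferon-induced gene IFI27 (0.991) and to SPARC (0.988), a gene of platelets and stroma. SOCS3 was nearest to the T cell gene CD2 (0.997) and to EIF4G1 (0.992). For PIAS3 the nearest were IL23A (0.996), whose probe shares its dark column, and BSDC1 (0.926). Both correlations include the dark PIAS3 spot at -8.36 on the horse 4 array before exercise, so neither describes PIAS3 apart from that spot.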

How the data were processed

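Cy3-labelled total RNA was measured on 1-colour Agilent horse arrays, 1 for each sample, per the labels. The deposited intensity of each spot was read and background-subtracted by Agilent Feature Extraction 10.10.1.1 and not normalized between arrays, per the file headers. Blood was centrifuged at 3000 rpm for 10 min, per the labels' protocols.

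From the log2 of the processed signal, the 75th percentile of the 43803 non-control spots of its array was subtracted. Flagged outlier spots (67 to 169 per array) were left out afterwards; 1417 control spots were not used. Probes well above background on at least 3 arrays were kept (29571 of 43603). After was tested against before exercise in limma 3.58.1 (lmFit, eBayes; R 4.3.3), two-sided and without a block, and SE is limma's moderated standard error. The horse number pairs samples of the same animal. The deviations of same-numbered arrays from the group mean correlated at 0.36, 0.40 and 0.23. Exact permutation tests cannot go below p = 0.1 here for 3 against 3 arrays, so none was run.

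Probes were named through unversioned RefSeq accessions and a RefSeq gene table of the assembly TB-T2T, which named 1979 probes, 1199 of them kept. Gene names of Ensembl-annotated probes were not used here. The brightest kept probe outside the first column stands for a gene (PIAS3 and IL23A have none elsewhere). The members and lists were chosen with earlier results of these data known. The rule for names takes all 9 members, the 3 smallest p-values in each of 4 lists and the 2 most correlated genes per member. The fits were tested on simulated data. Alternatives were background correction (normexp, offset 50, on the median signal, since the files hold no mean signal), quantile normalization, filters, flagged spots kept, blocks, array weights, other probe choices and samples left out.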

Additional observations from a re-analysis of the deposited data

How the results depend on the processing

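Across 24 alternatives, 331 of 426 values of the 18 genes kept their sign and side of the threshold, 88 turned sign without a call and 7 passed; the causes were not tested except where stated. The horse as a replicate block changed no call (0 probes called, 1792 at an unadjusted p under 0.05, IL6 1.07 with adjusted p = 0.754 in limma). All probes called numbered 132 with slide as a block, 122 within slide 1, 117 with both blocks and 1638 with array weights (the weight estimation stopped before convergence); 1 member probe was called in each, PIAS3 in the first 3 (8.58, 8.58 and 8.29) through its dark spot and IL6 with weights (1.65), and 1 pathway gene in the first 3, IL23A (6.04, 6.04 and 5.86), in the same column. Genes with one direction in all 3 horses numbered 2 with normexp (IL6, IL10), quantile normalization (IL6, TNFAIP6) and probe means (IL6, IL10), and 0 when all 6 arrays had to be above background, which drops IL6. Signs turned with normexp (IL18 -0.066), quantile normalization (IL18 -0.053, IL4R -0.055), probe means (IL1RN 0.13, IL2RA -0.012), no first column (IL1RN 0.0076), array weights (TNF -0.43, IL18 -0.28, IL10 -0.18, IL4R -0.027, CASP1 -0.11, SOCS6 -0.18), slide as a block or slide 1 alone (IL1R2 -0.43, TNFAIP6 -0.040, SOCS3 -0.62, IL15 0.074, IL2RA -0.15, IL4R -0.19, CSF1R -0.047, ANXA1 -0.11), both blocks (IL1R2 -0.42, SOCS3 -0.66, IL15 0.049, IL2RA -0.21, IL4R -0.049, CSF1R -0.28, ANXA1 -0.25), and, chosen after seeing the data, the first column left out on the horse 4 array before exercise (PIAS3 -0.23). Adding slide as a block to that last setting left the PIAS3 value the same, because slide and group coincide for the probe without that spot and no adjustment was possible.

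Leaving out a horse or an array gave 0 to 595 called probes, 595 without the before-exercise array of horse 4, 20 without horse 4, and no member or pathway gene. Without horse 4 or its before-exercise array, group and slide coincided, so these values cannot be told apart from a slide difference. The changes ranged from 0.59 to 1.67 for IL6, -0.46 to 0.63 for TNF, -0.39 to 0.39 for IL18, -0.040 to 0.24 for IL10, -0.13 to 0.094 for IL1RN, -0.14 to 0.31 for IL1R2, -0.49 to 0.65 for TNFAIP6, -0.25 to 0.45 for SOCS3, -0.23 to 4.18 for PIAS3, 0.19 to 3.22 for IL23A, -0.52 to -0.11 for IL2, -0.28 to -0.039 for IL15, -0.047 to 0.21 for IL2RA, -0.13 to 0.22 for IL4R, -0.31 to 0.34 for CSF1R, -0.10 to 0.44 for CASP1, -0.11 to 0.34 for ANXA1 and -0.24 to 0.24 for SOCS6. Signal near background limits IL6 and, in horse 2, TNFAIP6.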
